A study of Mus musculus with 8 samples.

Results

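Every array of mouse hepatocytes that had received glucagon was set against every array that had not, whether or not the synthetic FXR agonist GW4064 was also present. The comparison took 4 arrays with glucagon and 4 without, which together are all 8 arrays of the series. They form 4 matched pairs, chosen by the label alone: each glucagon array is paired with the array of the same experiment and the same GW4064 state. The cells were primary hepatocytes of male C57BL/6J mice, kept in medium with 100 nM dexamethasone, a synthetic glucocorticoid that all groups therefore share. They received DMSO (the solvent), 100 nM glucagon, 2 µM GW4064, or glucagon and GW4064 together, and were taken after 6 h. Each experiment used 1 pool of cells from 3 mice. A sample combines 2 technical replicates, and its total RNA (300 ng) was labelled for the Affymetrix MoGene 2.0 ST array. The 4 pairs thus come from only 2 cell pools, so the p-values measure the spread between pairs and not between 4 sets of animals. The age of the mice is not given in the sources used here.

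Glucagon is the pancreatic hormone of fasting. Its receptor on hepatocytes couples to adenylyl cyclase. The cyclic AMP formed activates protein kinase A, which phosphorylates the transcription factor CREB and releases its CRTC coactivators, and the liver turns to glucose output and amino acid breakdown. FXR, the product of Nr1h4, is the nuclear receptor for bile acids.

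Values are log2 signals as deposited, and a difference is the mean over the 4 pairs of the log2 signal with glucagon minus that without. Its standard error (SE) and two-sided p come from limma, a linear model with a moderated variance, fitted with the pair as a block over 13845 genes. Rises and falls are genes with a Benjamini-Hochberg adjusted p below 0.05. The hepatocyte identity of the cells was checked first. All 15 tested hepatocyte markers were above the filter level on every array, the filter level being the 40th percentile of an array's signals. Their median signal was 8.94 to 10.50 without glucagon and 9.43 to 10.20 with it. In experiment 1 it was 9.01 and 8.94 without glucagon and higher, 9.45 and 9.43, on the matched glucagon arrays. In experiment 2 it was 10.29 and 10.50 without glucagon and lower, 10.20 and 10.17, on the matched glucagon arrays. The albumin gene Alb lay at 12.99 to 13.11 without and 12.97 to 13.11 with glucagon. The 11 tested macrophage markers had a median signal of 3.15 to 3.32 without and 3.20 to 3.28 with glucagon, near the filter level. Their summed linear signal was 1200 to 1721 without and 1346 to 1945 with glucagon, higher with glucagon in all 4 pairs, and 0 of the 11 passed. The 12 tested sinusoidal endothelial markers had a median signal of 3.81 to 4.38 without and 3.64 to 4.26 with glucagon and a summed linear signal of 295 to 480 and 303 to 472, and 0 of the 12 passed. Their sums were 463 to 480 on the arrays of experiment 1 and 295 to 324 on those of experiment 2. Of the lymphocyte and neutrophil markers 12 of 16 gave no tested gene. Of 14 stellate cell markers 7 stayed below the filter, among them the collagen genes Col1a1, Col1a2 and Col3a1. The GW4064 array of experiment 2 stood apart: olfactory and vomeronasal receptor genes had a median signal of 3.25 there and 2.95 to 2.98 on the other 7 arrays. The difference was not confined to these genes. Over all probe sets the median was 3.57 there and 3.42 to 3.46 on the others, and the filter level was 3.27 against 3.13 to 3.17. Counts without the pair that holds this array are given for the whole comparison and for the lists where they moved by over 1.5 times.

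The promoters of 4 of the genes with the largest rises are shown because their upstream letters hold TGACG, the core of the cyclic AMP response element that CREB recognises. Each is the run of 250 bases before the gene's start in RefSeq on GRCm38.p6, read 5′ to 3′ along the gene, with this core, written CGTCA where it lies on the other strand, in capitals. Pck1 is on the plus strand at chr2:173152823-173153072, Nr4a3 on the plus strand at chr4:48045055-48045304, Ppargc1a on the minus strand at chr5:51567726-51567975 and Rgs2 on the minus strand at chr1:144004150-144004399.
Pck1: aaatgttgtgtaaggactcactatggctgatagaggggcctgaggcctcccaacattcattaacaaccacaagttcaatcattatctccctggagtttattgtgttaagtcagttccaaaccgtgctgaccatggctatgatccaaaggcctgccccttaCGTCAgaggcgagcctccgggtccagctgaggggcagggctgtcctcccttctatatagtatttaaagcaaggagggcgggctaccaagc
Nr4a3: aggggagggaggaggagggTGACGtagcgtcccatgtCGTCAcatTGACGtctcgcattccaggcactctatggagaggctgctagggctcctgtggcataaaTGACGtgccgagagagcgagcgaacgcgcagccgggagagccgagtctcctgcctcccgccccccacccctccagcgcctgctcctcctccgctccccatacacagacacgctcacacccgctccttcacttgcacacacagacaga
Ppargc1a: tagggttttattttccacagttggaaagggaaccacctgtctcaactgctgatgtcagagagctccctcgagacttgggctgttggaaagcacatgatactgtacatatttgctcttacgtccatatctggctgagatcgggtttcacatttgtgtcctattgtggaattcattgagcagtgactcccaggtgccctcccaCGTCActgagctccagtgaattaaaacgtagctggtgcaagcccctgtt
Rgs2: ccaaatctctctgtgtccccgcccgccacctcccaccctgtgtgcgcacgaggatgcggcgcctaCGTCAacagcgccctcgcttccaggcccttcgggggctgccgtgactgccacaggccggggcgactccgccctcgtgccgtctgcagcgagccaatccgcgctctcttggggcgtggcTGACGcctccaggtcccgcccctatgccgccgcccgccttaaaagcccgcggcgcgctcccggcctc
The first base of the core lies 90 bases before the start in Pck1 and 49 bases before it in Ppargc1a. Rgs2 holds the core 185 and 67 bases before its start. Nr4a3 holds it 4 times, at 231, 213, 205 and 147 bases. The letters are a description of these windows and not evidence of binding. In windows of the same length the core, searched on both strands, was present in 27.4% of the 10743 tested genes that had an entry, in 22.8% of the 290 that rose and in 27.9% of the 340 that fell. The full element TGACGTCA, which contains the core, was present in 2.74% of tested genes, in 1 of the 290 that rose and in 13 of the 340 that fell. Among the 15 largest rises 12 had an entry, 5 of these held the core and 0 the full element. Among the 15 largest falls 12 had an entry and 1 held the core.

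With glucagon, the 4 genes with the largest rises were Pck1, which was 35.5-fold higher, Etnppl, G6pc and Nr4a3. The largest falls were those of Socs2, which was 5.90-fold lower, Slc4a11 and Neurl3. In all, 795 of 13845 genes passed (5.74%): 367 rose (2.65%) and 428 fell (3.09%). All 795 had the same sign in the 4 pairs, which a paired test on 4 pairs nearly requires. Over all 13845 genes, 2131 were positive in all 4 pairs and 2309 negative. Of the rises 98 were at least 2-fold and 16 at least 4-fold. Of the falls 57 were at least 2-fold and 3 at least 4-fold. The median difference over all genes was -0.00. In 840 genes (6.07%) the 4 glucagon arrays all lay above the 4 others, and in 953 (6.88%) all lay below; 289 of the rises and 325 of the falls were among these. Without the pair as a block 183 genes passed, 113 up and 70 down. Leaving out the GW4064 pair of experiment 2 gave 1320 genes, and leaving out the other pairs gave 143 (GW4064 pair of experiment 1), 127 (pair without GW4064 of experiment 1) and 262 (pair without GW4064 of experiment 2). A set of 69 genes, 54 up and 15 down, passed in each of these 4 fits, without the block, after quantile normalization and with the pairs of each cell pool averaged.

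**Figure D1:**
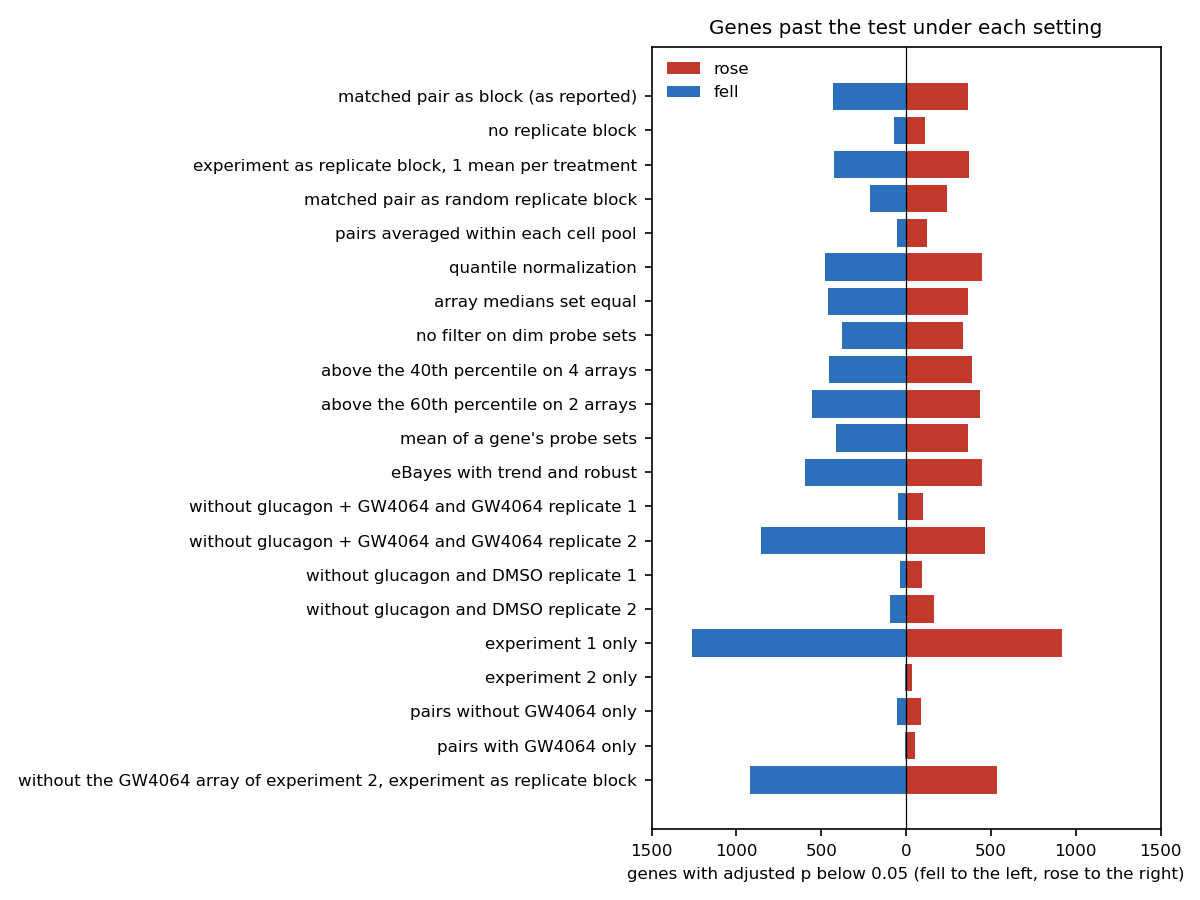
Genes with an adjusted p below 0.05 (horizontal axis, number of genes; falls to the left in blue, rises to the right in red) for the fit as reported and each other setting (vertical axis). The reported fit has 367 rises and 428 falls; experiment 1 alone gave 919 and 1264, and experiment 2 alone 37 and 6.

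In what follows, the signals of a gene are listed for the DMSO array of experiment 1, the GW4064 array of experiment 1, the DMSO array of experiment 2 and the GW4064 array of experiment 2, and then for the glucagon arrays matched to each. Pck1, the cytosolic phosphoenolpyruvate carboxykinase that commits carbon to gluconeogenesis, had signals of 3.49, 4.20, 4.79 and 4.68 without glucagon and 9.28, 9.39, 9.51 and 9.58 with it. The groups are far apart, and the 4 glucagon arrays lie closer together than the 4 others. The difference was 5.15 (SE 0.17, n = 4 pairs, limma adjusted p = 0.000136). G6pc, the catalytic subunit of glucose-6-phosphatase, the last step of glucose output, had 5.93, 5.94, 6.03 and 6.03 without and 10.39, 10.16, 9.79 and 9.89 with glucagon, a difference of 4.08 (SE 0.13, limma adjusted p = 0.000136). Here the arrays without glucagon were nearly level, and both glucagon arrays of experiment 1 were above those of experiment 2. Of the 14 tested genes of gluconeogenesis and glucose export 3 rose and 0 fell, with a median difference of 0.15. The third was Got1, the cytosolic aspartate aminotransferase (1.29, SE 0.09), and all 3 held when any 1 pair was left out. Fbp1, the fructose bisphosphatase of the pathway, had a difference of 0.40 (SE 0.10, limma adjusted p = 0.0746) and did not pass.

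Ppargc1a encodes PGC-1α, the coactivator of gluconeogenic and mitochondrial genes. Its signals were 3.13, 3.08, 4.11 and 3.90 without glucagon and 6.54, 6.91, 7.03 and 7.59 with it. The orphan nuclear receptor gene Nr4a3 had 3.25, 3.01, 3.07 and 3.77 without and 7.49, 7.23, 7.08 and 7.05 with glucagon. The groups do not overlap for either gene. The differences were 3.46 (SE 0.15) for Ppargc1a and 3.94 (SE 0.17) for Nr4a3, and 2 of the 4 arrays without glucagon were at the filter level for each, so both sizes are lower limits. The related Nr4a1 had 4.49, 4.51, 4.46 and 4.64 without and 6.26, 6.24, 6.38 and 6.33 with glucagon (difference 1.78, SE 0.08, limma adjusted p = 0.000274), with little spread within either group. Rgs2, which shortens signalling by G proteins, rose by 3.32 (SE 0.23).

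The list of cyclic AMP and CREB response genes had 32 tested members, of which 10 rose and 4 fell, with a median of 0.01. The 10 were Nr4a1, Nr4a3, Ppargc1a, Rgs2, Irs2, the salt-inducible kinase gene Sik1, the phosphodiesterase genes Pde4b, Pde3b and Pde10a, and Klf15. Irs2, the adaptor of the insulin receptor, had 5.81, 5.94, 6.24 and 5.89 without and 7.87, 7.82, 7.76 and 7.69 with glucagon (1.82, SE 0.10), and its groups do not overlap. Nr4a1, Nr4a3, Ppargc1a, Sik1, Rgs2 and Irs2 held when any 1 pair was left out. The 4 that fell were Junb, Klf9, Nfil3 and Akap12, and none of these held without each pair; without the block 10 rose and 1 fell. Crem, which encodes activators and repressors of the same response element, had a difference of 0.29 (SE 0.10, limma adjusted p = 0.142). Of the 16 tested genes of the receptor and its kinase cascade 0 fell and 1 rose, the adenylyl cyclase gene Adcy9 (0.55, SE 0.09), a call lost without the block and without 3 of the 4 pairs in turn. The glucagon receptor gene Gcgr had a difference of 0.21 (SE 0.10, limma adjusted p = 0.27).

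**Figure D2:**
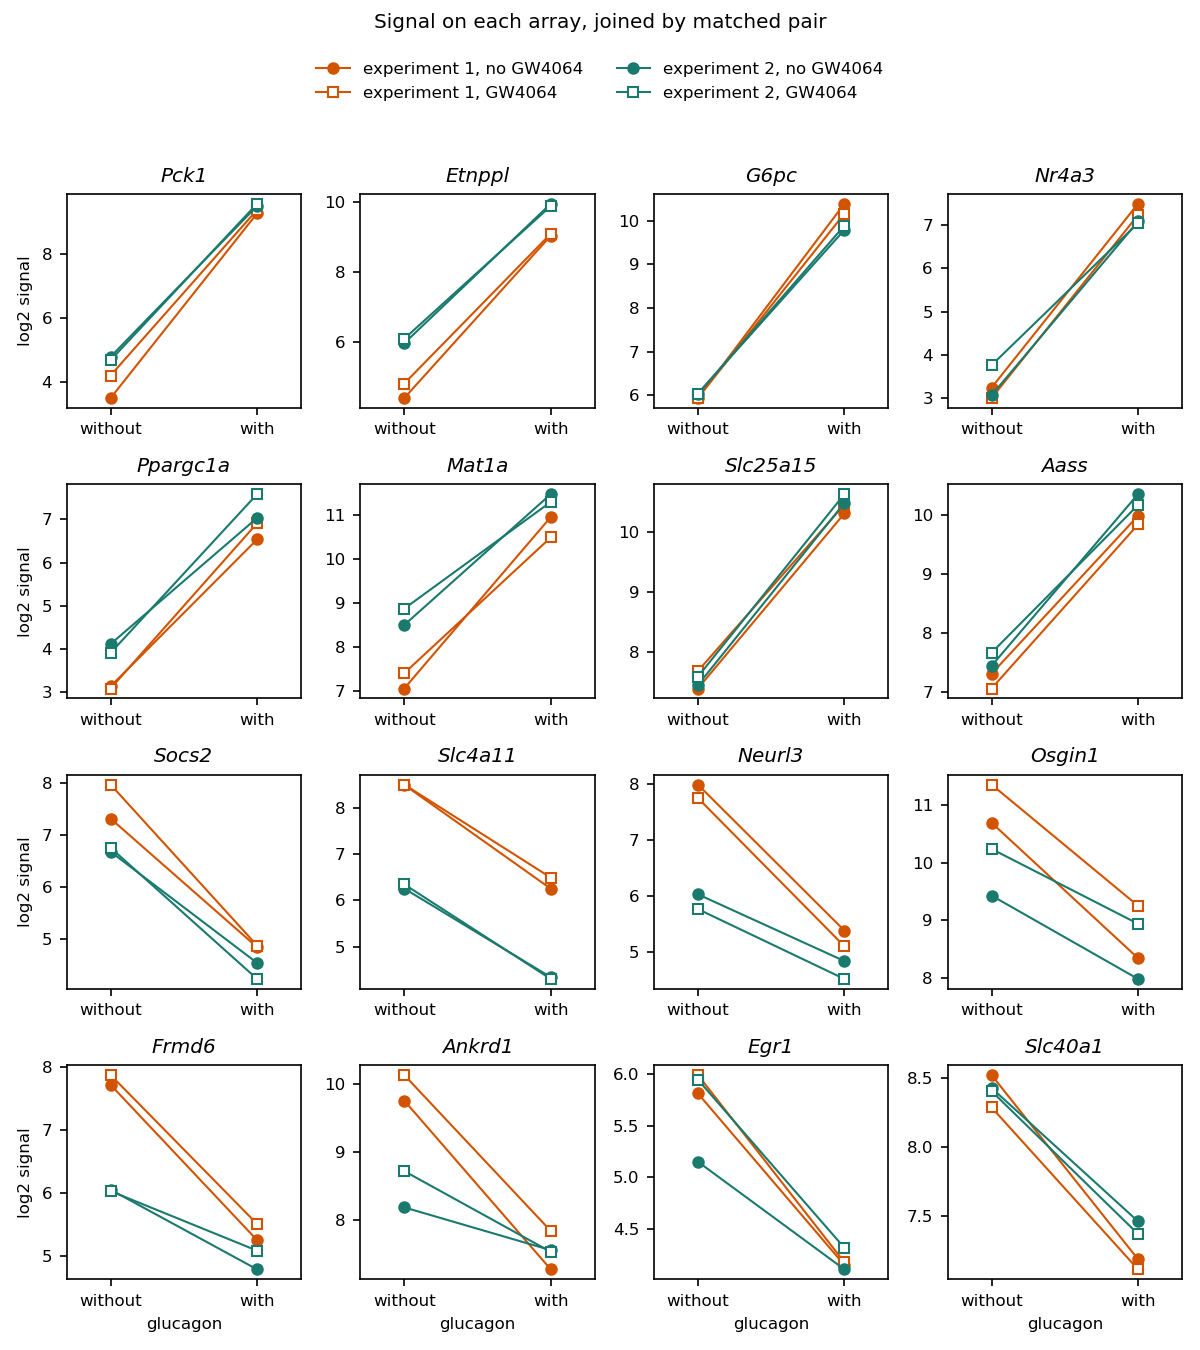
Log2 signal (vertical axis, a separate scale for each gene) without and with glucagon for 8 genes that rose (upper 2 lines of panels) and 8 that fell (lower 2); each line joins the 2 arrays of a matched pair, orange for experiment 1, green for experiment 2, open squares where GW4064 was present. All 4 lines run the same way in every panel, as they did for all 795 genes that passed. Socs2, Slc4a11, Neurl3, Osgin1, Frmd6 and Ankrd1 show a higher start in experiment 1 than in experiment 2, while the starts of Egr1 and Slc40a1 overlap.

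Slc25a15, the mitochondrial ornithine carrier of the urea cycle, had 7.39, 7.68, 7.45 and 7.59 without glucagon and 10.31, 10.46, 10.48 and 10.63 with it. Both groups are tight and far apart, and the difference of 2.94 (SE 0.08, limma adjusted p = 0.000136) was 2.85 in experiment 1 and 3.04 in experiment 2. Of the 8 tested urea cycle genes 5 rose and 0 fell, and all 8 differences were positive, with a median of 0.50. The others were Arg1, the arginase that forms urea (1.46, SE 0.10), the aspartate-glutamate carrier gene Slc25a13 (0.65, SE 0.07), Nags, which makes the activator of the first step, and Cps1, which catalyses that step (0.46, SE 0.08). Arg1 had 8.64, 8.71, 10.05 and 9.80 without and 10.41, 9.98, 11.45 and 11.22 with glucagon, so the groups overlap and the rise shows only within pairs. Slc25a15 and Arg1 held when any 1 pair was left out; without the block 1 of the 8 rose, and without the GW4064 pair of experiment 2 4 did.

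Of 15 tested transaminases 6 rose and 2 fell (median 0.42). Etnppl, which breaks down phosphoethanolamine, rose most: it had 4.39, 4.81, 5.96 and 6.08 without and 9.03, 9.08, 9.94 and 9.87 with glucagon. In both groups the arrays of experiment 2 were above those of experiment 1, and the difference was 4.17 (SE 0.14, limma adjusted p = 0.000136). Oat, which converts ornithine, rose by 2.19 (SE 0.10), the mitochondrial alanine aminotransferase gene Gpt2 by 0.86 (SE 0.08), and the tyrosine aminotransferase gene Tat by 0.83 (SE 0.12). Gpt2, Got1, Oat and Etnppl held when any 1 pair was left out, and without the block 5 rose and 1 fell. Kyat1 and the serine synthesis gene Psat1 fell.

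In amino acid breakdown 5 of 30 tested genes rose and 0 fell, with a median of 0.20. Aass, which starts lysine breakdown, had 7.31, 7.06, 7.44 and 7.66 without and 9.98, 9.83, 10.34 and 10.16 with glucagon. The groups do not overlap, and the difference of 2.71 (SE 0.09) was nearly the same in both experiments, 2.72 and 2.70. The histidine ammonia-lyase gene Hal rose by 1.95 (SE 0.19) and Aldh4a1, of proline breakdown, by 1.63 (SE 0.09); these 3 held when any 1 pair was left out. Ftcd and Hgd, of histidine and tyrosine breakdown, were the others. Without the block 2 rose, and without the GW4064 pair of experiment 2 8 did.

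In the methionine cycle and transsulfuration list 6 of 15 tested genes rose and 0 fell, with a median of 0.33. Mat1a, which makes S-adenosylmethionine in the adult liver, had 7.06, 7.41, 8.50 and 8.87 without and 10.95, 10.49, 11.47 and 11.29 with glucagon. All glucagon arrays are above all others, and within each group experiment 2 is the higher; the difference was 3.09 (SE 0.22, limma adjusted p = 0.00182). The others were Bhmt2 (1.84, SE 0.21), Cbs, Nnmt and the choline and glycine-methyl oxidation genes Chdh (1.22, SE 0.15) and Dmgdh (1.13, SE 0.11). Only Mat1a and Dmgdh among the 6 held when any 1 pair was left out, and without the block 4 rose. Among 19 amino acid transporters Slc7a2, which carries arginine and lysine, rose by 2.49 (SE 0.22) and held without any 1 pair. Slc38a1 rose by 0.57 (SE 0.08) and Slc7a5, the large neutral amino acid transporter, fell by 0.93 on the log2 scale (SE 0.19); both calls were lost without the block and without 3 of the 4 pairs in turn. Of 31 mitochondrial carriers 5 rose and 3 fell: the glutamate carrier gene Slc25a22 rose by 1.90 (SE 0.08) and the iron carrier gene Slc25a37 fell by 1.09 on the log2 scale (SE 0.09), and both held without any 1 pair. Without the GW4064 pair of experiment 2 the transporter list had 3 rises and 2 falls and the carrier list 5 and 5.

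**Figure D3:**
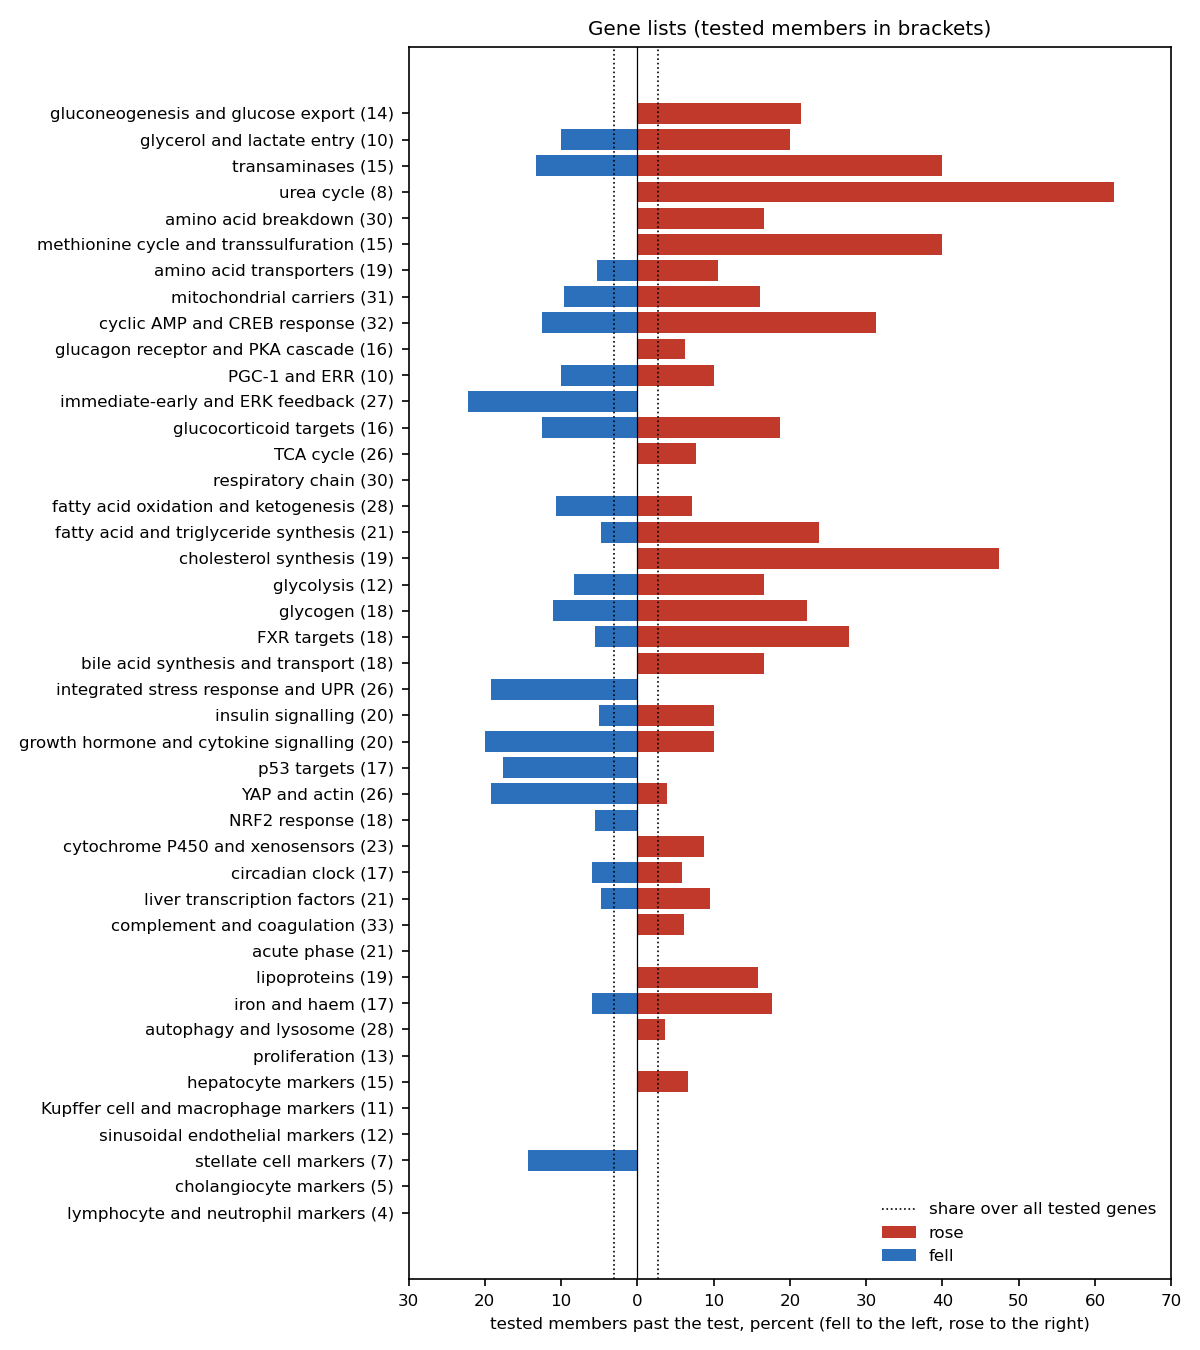
Share of the tested members of each gene list (number tested in brackets) that rose (red, to the right) or fell (blue, to the left), in percent; dotted lines mark the shares over all tested genes, 2.65% and 3.09%. The urea cycle list has the highest share of rises, with 5 of 8, and the immediate-early list the highest share of falls, with 6 of 27. Members and lists were chosen with earlier results of these data known, so a share beyond the dotted lines is no test of a list.

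Genes of mitochondrial fuel use gave a mixed picture. Cpt1a, the gate for fatty acid entry into mitochondria, had 7.47, 7.62, 7.30 and 7.15 without glucagon and 9.53, 9.30, 8.98 and 9.04 with it. The groups do not overlap, and the difference was 1.83 (SE 0.09, limma adjusted p = 0.000554). In its list of 28 tested genes of fatty acid oxidation and ketogenesis, the peroxisomal gene Ehhadh also rose, and Angptl4 (-1.19, SE 0.16), an inhibitor of lipoprotein lipase, the lipid droplet gene Plin2 (-0.61, SE 0.08) and the thioesterase gene Acot2 (-0.69, SE 0.09) fell. The median was 0.04, and only Cpt1a held when any 1 pair was left out. In the TCA cycle 2 of 26 rose and 0 fell (median 0.16): the fumarase gene Fh1 (1.15, SE 0.10), which held without any 1 pair, and Idh3a (0.74, SE 0.10), which did not; 4 rose without the GW4064 pair of experiment 2. Of 30 respiratory chain genes 0 rose and 0 fell; 28 differences were positive, with a median of 0.13.

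Cholesterol synthesis was the list with the highest median, 0.57, of the 43. Of its 19 tested genes 9 rose and 0 fell, and all 19 differences were positive. Pmvk, the phosphomevalonate kinase, had 5.75, 5.86, 6.08 and 5.96 without and 7.93, 7.49, 7.70 and 7.57 with glucagon, with groups far apart (difference 1.76, SE 0.12). Cyp51 rose by 1.10 (SE 0.13), Lss, the lanosterol synthase gene, by 0.87 (SE 0.10) and Ebp by 0.66 (SE 0.09); Hmgcs1, Sqle, Nsdhl, Hsd17b7 and Insig1 were the others. Only Pmvk held when any 1 pair was left out, and 4 rose without the block. The median was 0.76 in experiment 1 and 0.40 in experiment 2. In fatty acid and triglyceride synthesis 5 of 21 rose and 1 fell (median 0.22). Acacb, the acetyl-CoA carboxylase whose product restrains Cpt1a, rose by 1.30 (SE 0.09) and held without any 1 pair. Fasn (0.48, SE 0.09), Elovl5, Elovl6 and Insig2 rose and Dgat2 fell, calls that were lost without at least 1 of the pairs; without the block 1 gene of the list rose.

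In glycolysis 2 of 12 tested genes rose and 1 fell (median 0.30). Pfkfb2, which sets the level of fructose 2,6-bisphosphate, rose by 1.45 (SE 0.17), and Gckr, the inhibitor of glucokinase, by 0.69 (SE 0.09). The liver pyruvate kinase gene Pklr had 9.33, 9.57, 9.03 and 9.24 without and 9.10, 9.12, 8.68 and 8.84 with glucagon, overlapping groups, and fell by 0.36 on the log2 scale (SE 0.08, limma adjusted p = 0.0499). Its call was lost without any 1 of the 4 pairs, that of Pfkfb2 without the GW4064 pair of experiment 1, and that of Gckr without either pair of experiment 1. Without the GW4064 pair of experiment 2 the list had 4 rises and 0 falls. Of 18 glycogen genes 4 rose and 2 fell (median 0.21). Gys1, the gene of the muscle form of glycogen synthase, rose by 1.21 (SE 0.09) and held without any 1 pair. The other rises were Pygb, Ppp1r3b and Ppp1r3c, and 0 of the 18 passed without the block.

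Among the falls, Socs2, a feedback inhibitor of growth hormone signalling, had 7.31, 7.97, 6.67 and 6.75 without glucagon and 4.84, 4.87, 4.53 and 4.22 with it. The groups do not overlap, and the difference was -2.56 (SE 0.15, limma adjusted p = 0.00108). Slc4a11, a membrane transporter, had 8.49, 8.50, 6.25 and 6.34 without and 6.25, 6.49, 4.34 and 4.30 with glucagon. The glucagon arrays of experiment 1 lie at the level of the arrays without glucagon of experiment 2, so the groups overlap, and the difference of -2.05 (SE 0.08, limma adjusted p = 0.000274) is one of pairs: without the block the adjusted p was 0.306. Egr1, an immediate-early transcription factor, had 5.81, 5.99, 5.15 and 5.94 without and 4.15, 4.18, 4.11 and 4.32 with glucagon, a difference of -1.53 (SE 0.13). Only Socs2 and Egr1 of the 15 largest falls also passed without the block, against 13 of the 15 largest rises. When any 1 pair was left out, 6 of these falls held (Socs2, Slc4a11, Osgin1, Plaur, Egr1 and Rin1) and 14 of the rises, all but Aldh8a1.

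The other large falls were Neurl3 (-1.92, SE 0.29), a ubiquitin ligase gene; Osgin1 (-1.80, SE 0.19), a growth inhibitor induced by oxidative stress; Frmd6 (-1.76, SE 0.27), a membrane scaffold that feeds the Hippo pathway; and Ankrd1 (-1.64, SE 0.31), a target of the Hippo effector YAP. Plaur, the urokinase receptor gene, fell by 1.56 on the log2 scale (SE 0.14), the Ras effector gene Rin1 by 1.51 (SE 0.16) and the actin regulator gene Enah by 1.47 (SE 0.23). Dthd1, Prnd, Rap2b, Lrig1 and Map2k3os fell by 1.41 to 1.61; Map2k3os is annotated antisense to Map2k3, and the strand the probe set reads was not checked. Neurl3, Frmd6, Ankrd1, Dthd1, Enah, Map2k3os, Prnd, Rap2b and Lrig1 did not pass without either pair of experiment 1. The other large rises were Aldh8a1 (2.23, SE 0.27), of tryptophan breakdown, the zinc finger gene Fezf1 (2.19, SE 0.19), AA986860 (2.12, SE 0.16) and the palmdelphin gene Palmd (2.02, SE 0.15).

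Of 27 tested immediate-early and ERK feedback genes 0 rose and 6 fell, with a median of -0.27: Egr1, Junb (-0.88, SE 0.16), Ier2, Spry1 (-0.50, SE 0.08), Myc and Klf6 (-0.58, SE 0.08). Only Egr1 held when any 1 pair was left out, 2 fell without the block, and 10 fell without the GW4064 pair of experiment 2. Among 20 genes of growth hormone and cytokine signalling 4 fell and 2 rose (median -0.04). Besides Socs2 these were Cish, the interleukin 1 receptor gene Il1r1 (-1.29, SE 0.14) and the oncostatin M receptor gene Osmr (-1.30, SE 0.10), while Igf1, the growth factor that growth hormone induces in liver, rose by 0.72 (SE 0.07) and Lepr also rose. Socs2 and Osmr held without any 1 pair, and without the block only Socs2 passed. In the integrated stress and unfolded protein response 0 of 26 rose and 5 fell (median -0.17): Ddit3, which encodes CHOP (-1.06, SE 0.11), Ppp1r15a (-0.84, SE 0.10), Nupr1 (-0.76, SE 0.09), the chaperone gene Hspa5 (-0.62, SE 0.07) and Trib3. None of these held without each pair in turn, and 3 passed without the block. The median of this list was -0.01 in experiment 1 and -0.31 in experiment 2.

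In the YAP and actin list 5 of 26 fell and 1 rose, with a median of -0.17. The falls were Ankrd1, Ccn2, Wwtr1, which encodes the YAP partner TAZ (-0.74, SE 0.09), Tagln2 (-0.51, SE 0.09) and Tln1, and the rise was Palmd; 0 of the falls passed without the block, 9 members fell without the GW4064 pair of experiment 2, and none of the 5 held without each pair. Ankrd1 had 9.76, 10.13, 8.19 and 8.72 without glucagon and 7.28, 7.84, 7.56 and 7.54 with it. The glucagon arrays are alike, and the arrays without glucagon of experiment 1 are the highest, so the fall was 2.38 in experiment 1 and 0.91 in experiment 2, each on the log2 scale. Of 17 p53 targets 3 fell and 0 rose (median -0.19): Eda2r (-0.93, SE 0.12), Plk2 (-1.28, SE 0.23) and Ccng1 (-0.36, SE 0.07), none of which held without each pair. Of this list 6 fell without the GW4064 pair of experiment 2 and 1 without the block. The summed signals of some markers of other cells fell beside these lists. The summed linear signal of the 7 tested stellate cell markers was 1008 to 1400 without and 664 to 935 with glucagon, of which the intermediate filament gene Vim fell by 0.82 on the log2 scale (SE 0.09) and the other 6 did not pass. That of 5 cholangiocyte markers was 129 to 291 without and 97.5 to 123 with glucagon, of which Sox9 had a difference of -1.32 (SE 0.30, limma adjusted p = 0.0569) and 0 passed; 1 fell without the GW4064 pair of experiment 2. The median signal of the same 5 markers ran the other way, 3.65 to 3.79 without and 3.90 to 4.48 with glucagon. That of the 7 stellate cell markers overlapped, 4.55 to 4.87 without and 4.69 to 4.78 with glucagon. Of these 7, 3 had a positive difference and 4 a negative one. In bulk RNA fewer cells of a type and less RNA per cell cannot be told apart. Which cells the signals of these markers came from, and their part in the falls, was not tested.

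The lists of bile acid and iron handling genes together held both rises and falls. Over all tested genes 2.65% rose and 3.09% fell. Of 18 FXR targets 5 rose and 1 fell (median 0.04). Aldh1a1 (0.81, SE 0.07), the sterol exporter gene Abcg5 (0.94, SE 0.08) and Osgin1 held when any 1 pair was left out; Abcg8, Baat, which conjugates bile acids (0.65, SE 0.11), and Sdc1 (0.46, SE 0.07) did not. Without the block 1 of the list rose, and without the GW4064 pair of experiment 2 it had 4 rises and 2 falls. Abcb11, the bile salt export pump, had 6.64, 7.69, 6.61 and 7.05 without and 5.51, 6.07, 6.19 and 6.48 with glucagon. These groups do not overlap, yet the difference of -0.93 (SE 0.20) just missed the threshold (limma adjusted p = 0.0504). Nr1h4 had a difference of -0.56 (SE 0.13, limma adjusted p = 0.0666) and Nr0b2, which encodes the small heterodimer partner, one of -0.02 (SE 0.09). Of 18 bile acid synthesis and transport genes 3 rose and 0 fell; the organic anion transporter genes Slco1a4 (1.73, SE 0.09) and Slco2b1 (1.42, SE 0.15) held without any 1 pair, and without the GW4064 pair of experiment 2 the list had 4 rises and 1 fall. Slc40a1, ferroportin, the exporter of cellular iron, had 8.52, 8.29, 8.43 and 8.40 without and 7.19, 7.12, 7.46 and 7.37 with glucagon. Both groups are tight, and the fall of 1.13 on the log2 scale (SE 0.09, limma adjusted p = 0.00241) was the only one of 17 tested iron and haem genes; it held without any 1 pair and without the block. The list also had 3 rises (Hjv, Alas1 and Hfe), and without the GW4064 pair of experiment 2 it had 3 rises and 2 falls.

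Transcription factors and glucocorticoid targets had calls in both directions. Of 21 liver transcription factors 2 rose, Prox1 (1.07, SE 0.12) and Foxa2 (0.62, SE 0.11), and Cebpg fell (-0.60, SE 0.08); without the GW4064 pair of experiment 2 the list had 3 falls. Of 16 glucocorticoid targets 3 rose and 2 fell: Sgk1 (1.73, SE 0.24), Zbtb16 and Tat rose, and Fkbp5 (-0.55, SE 0.10) and Klf9 (-0.57, SE 0.09) fell. None of these genes held when each pair was left out in turn. Igfbp1 had a difference of -0.18 (SE 0.20), 0.28 in experiment 1 and -0.64 in experiment 2. In the lists of acute phase (21 tested) and proliferation (13 tested) genes 0 rose and 0 fell, and the medians were 0.00 and 0.11.

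Whether the glucagon difference depended on GW4064 was asked with the interaction of glucagon and GW4064 state, 2 pairs against 2. No gene passed (0% of 13845), and 314 genes had an unadjusted p under 0.05. About 692 would be expected at that level if no gene differed. Genes are not independent, so such a count is no test. For Pck1 the difference with GW4064 minus that without it was -0.21, with a 95% interval of -1.13 to 0.70. For G6pc it was -0.06 (-0.78 to 0.65), for Slc25a15 -0.07 (-0.52 to 0.39), for Ppargc1a 0.59 (0.04 to 1.14) and for Socs2 -0.50 (-1.14 to 0.13). A missed threshold does not show that the responses are alike. Each interval is for a single gene and was not adjusted for the number of genes tested. That of Ppargc1a leaves out 0, yet the gene did not pass after adjustment (limma unadjusted p = 0.039), so it does not show a dependence on GW4064. Among the rises the median size was 0.66 without and 0.69 with GW4064, and among the falls 0.57 in both. Over all tested genes it was 0.13 without and 0.16 with GW4064. The rises and falls were called over these same pairs, so their like sizes cannot show that the responses are alike.

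The corresponding test between the experiments, the 2 cell pools, also passed no gene (0% of 13845). That count depended on the arrays used: without the pair lacking GW4064 of experiment 2 it was 1137, and it was 1 without the GW4064 pair of experiment 2, 1 without the block and 1 after quantile normalization. Without the pair lacking GW4064, experiment 2 is left with only the pair that holds the GW4064 array that stood apart. The count of that fit therefore cannot tell the cell pool from that array. In the reported fit the smallest limma adjusted p was 0.104, and 1392 genes had an unadjusted p under 0.05. The number expected if no gene differed is again about 692. The 5 genes with the smallest p all had larger falls in experiment 1. Rrad, a small GTPase gene, had 5.99, 6.30, 2.86 and 3.20 without glucagon and 2.72, 2.97, 2.72 and 2.69 with it. Its signal stood above the filter level on only the 2 arrays of experiment 1 without glucagon. The difference of -3.30 in experiment 1 is therefore a lower limit of the fall, and experiment 2, at the filter level on all 4 arrays, gave no measured difference. Thbs1, the thrombospondin 1 gene, had differences of -1.95 and -0.07, Angptl8 of -1.75 and -0.32, Neurl3 of -2.63 and -1.22 and Dio3 of -1.87 and -0.46. Of the 428 falls 327 were larger in experiment 1 (median size 0.64 against 0.49), and of the 367 rises 234 were (0.76 against 0.63), whereas over all tested genes 6835 were larger in experiment 1 and 7010 in experiment 2. All 15 of the largest falls and 14 of the 15 largest rises, all but Slc25a15, were larger in experiment 1.

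**Figure D4:**
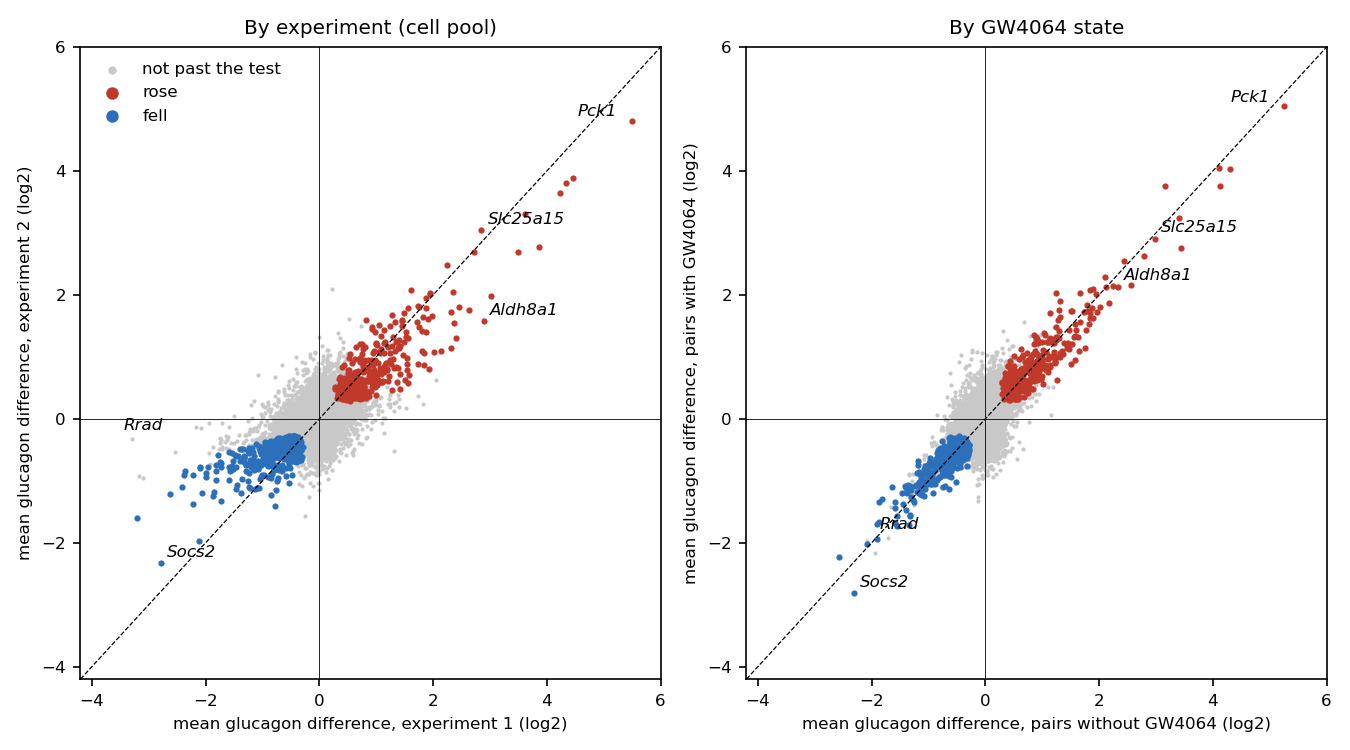
Mean glucagon difference per gene (log2) in experiment 2 against experiment 1 (left) and with against without GW4064 (right), over 13845 genes; red points rose, blue points fell, grey points did not pass, and the dashed line marks equal differences. On the left the blue points lie mostly above the dashed line, 327 of the 428 falls being larger in experiment 1, and Rrad, at the filter level on every array of experiment 2, lies at -3.30 on the experiment 1 axis.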

How the data were processed

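Gene expression was measured on 8 single-channel arrays. The authors deposited log2 values made with GeneSpring, per the labels. Its version and how it corrected background, summarised and normalized are not stated in any label, and the log2 scale was read from the values' range. No depth exists for arrays, and their number limits the precision. Probe sets above the 40th percentile of an array on at least 2 arrays were kept (27338 of 41345). The platform annotation gave 23521 probe sets 1 symbol, 1814 several and 16010 none; only the first were tested, with the probe set of highest mean per gene, which left 13845 genes. No column of per-sample values was left unused (0). Coordinates are RefSeq's on GRCm38.p6.

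The fit used limma 3.58.1 in R 4.3.3, with the matched pair as a block (3 residual and 3.40 prior degrees of freedom), and the interactions used 2 residual degrees of freedom. The pairing follows the labels' experiment numbers and the shared cell pool. Over genes, arrays of an experiment deviated together from their group means (r = 0.350 to 0.620 over 6 combinations of groups). The matched combinations had 0.496 (DMSO and glucagon) and 0.410 (GW4064 and glucagon with GW4064). The highest value, 0.620, was that of the unmatched groups with glucagon. These values bear on the shared experiment and do not set the matched pair apart within it. With 4 pairs an exact sign-flip test could not go below p = 0.125, so no single-gene permutation test was run. The steps were tested on simulated data. Alternatives changed the block, the normalization, the filter, the probe set rule, the moderation and the arrays used. Genes were named by rule: the 15 largest rises and falls with the same sign in 4 pairs (predicted genes counted only: 19 rose, 15 fell), up to 4 members of each of 37 lists with the smallest p, a panel of 15, and the 5 smallest p-values of each interaction. Other list members are named without values as part of a list's count, and genes of the marker lists were named after their values were seen. Members and lists were chosen with earlier results of these data known.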

Additional observations from a re-analysis of the deposited data

Results flagged for a closer look

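A pair difference far from the 3 others was found in 7 of the named genes. About 1 in 20 groups is marked in this way by chance, and 170 genes were looked at. In the GW4064 pair of experiment 2 these were Slc25a13, at 0.70, and Sqstm1, at -0.61. In the pair without GW4064 of experiment 2 they were Klf6, at -0.36, and Acot2, at -0.97. In the pair without GW4064 of experiment 1 it was Pmvk, at 2.18. In the GW4064 pair of experiment 1 they were Aldh1a1, at 0.72, and Orm2, an acute phase gene, at 0.0258.

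Some genes differed in opposite directions in the groups compared, and in none did the limma test of the difference pass. Igfbp1 was higher with glucagon in both pairs of experiment 1 and lower in both of experiment 2, with a difference of -0.92 between the experiments. Between GW4064 states the difference with GW4064 minus that without it was -1.21 for the predicted gene Gm6124, -0.91 for the microRNA gene Mir669m-1, -0.94 for 4930448K20Rik and 0.88 for Btbd35f2. Gm6124 and 4930448K20Rik were at the filter level on 2 arrays of each side.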

How the results depend on the processing

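The matched pairs serve as the replicate block of the reported fit (795 genes, 367 up and 428 down). Without the replicate block 183 passed (113 up, 70 down; 181 of the 795). With the pair as a random block 453 passed (243 and 210), and with the pairs averaged within each cell pool 181 (125 and 56). Leaving out 1 pair gave 127 to 1320 genes, 92 to 467 up and 35 to 853 down. Experiment 1 alone gave 2183 (919 and 1264), experiment 2 alone 43 (37 and 6), pairs without GW4064 139 (87 and 52) and pairs with it 62 (53 and 9). Without the GW4064 array of experiment 2, chosen after seeing the data, 1454 passed (534 and 920). Some of these fits differ in their number of arrays and residual degrees of freedom. Experiment 1 alone and experiment 2 alone have the same number of both, and so do the fits that left out 1 pair. Causes of the differences in count were not tested. Quantile normalization (926), equal medians (825), the filters (712 to 991), mean probe sets (778), the experiment as block (797) and trended robust moderation (1041) stayed within 1.5 times.

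The test between experiments, run in 7 fits, gave 0 genes as reported, 1 after quantile normalization, 1 without the block, and 0 to 1137 without 1 pair, the highest without the pair lacking GW4064 of experiment 2. That between GW4064 states gave 0 in the 8 fits run: as reported, with the experiment as block, without a block, after quantile normalization and without each pair. Of 116 named genes that passed, 42 held without each pair. No named gene that passed reversed its sign under these alternatives. Where the pair lacking GW4064 of experiment 2 was left out, experiment 2 rested on the pair with the GW4064 array that stood apart. Precision is limited by 4 pairs from 2 pools, and genes near the filter level have compressed differences.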

Other observations

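The rises and falls ranked 16 to 30 by size hold gene groups not described above; they were named after their values were seen. Among the rises, Tpbgl was 3.72 to 3.88 without glucagon and 5.59 to 5.97 with it, a difference of 1.99 (SE 0.08, limma adjusted p = 0.000274). Gpcpd1, which splits glycerophosphocholine, rose by 1.98 (SE 0.10) and Adh1, the liver alcohol dehydrogenase, by 1.85 (SE 0.23). Ackr3, an atypical chemokine receptor, rose by 1.68 (SE 0.13). Among the falls, Runx1, a transcription factor of blood formation, had a difference of -1.25 (SE 0.13), Csf1, the macrophage growth factor gene, one of -1.23 (SE 0.22), and the semaphorin gene Sema3e one of -1.25 (SE 0.22). Clic1 and Fyb2 fell by 1.16 (SE 0.08) and 1.29 (SE 0.09) on the log2 scale. Tpbgl, Gpcpd1, Ackr3, Runx1, Clic1 and Fyb2 held when any 1 pair was left out; Adh1, Csf1 and Sema3e did not.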
